A study of Mus musculus with 24 samples.

Results

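Genes of the choroid plexus epithelium were followed through RNA-seq of mouse brain, 9 in number: *Ttr*, *Enpp2*, *Kl*, *Sostdc1*, *Folr1*, *Clic6*, *Aqp1*, *Kcnj13* and *Otx2*. They were taken by name, through the Ensembl identifier of each row, from a brain table of 55469 genes, and all 9 members were found in 1 row each and passed the filter on low values (a mean normalised count of at least 10 over the brains, which 19228 genes passed). The samples were male mice on a C57BL/6N background, aged 10 weeks by the methods of the study, either wild-type (WT) littermates or homozygous for a CRISPR-Cas9 deletion of 1 phenylalanine tRNA gene. The knockouts were tRNA-Phe-1-1-/-, then tRNA-Phe-2-1-/- and lastly tRNA-Phe-3-1-/-. Each of the 4 genotypes had 3 brains and 3 livers, lettered A to C, which gives 12 brains and 12 livers. The labels do not tie a brain to a liver, and they do not state that each letter is a separate mouse. The methods of the study speak of RNA from at least 3 WT and 3 mutant mice. The p-values measure the spread between these samples. The protocol in the labels starts from small pieces of tissue, whereas the methods of the study speak of total brain RNA. The deleted tRNA genes themselves were not analysed here.

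The choroid plexus is a frond of vascular tissue in the brain ventricles, covered by a single layer of epithelial cells that secretes cerebrospinal fluid. These cells carry water channels, ion channels and folate transport on their surface, and they release carrier and signalling proteins into the fluid. Transthyretin, the product of *Ttr*, carries thyroxine and retinol-binding protein. It is the best known marker of this epithelium in the brain, and it is also a major product of hepatocytes. Of the other members, *Enpp2* encodes autotaxin, which makes lysophosphatidic acid and is also made by oligodendrocytes, *Kl* encodes klotho, a co-receptor for FGF23 that is also shed, and *Sostdc1* encodes a secreted inhibitor of BMP and Wnt signalling. *Folr1* encodes a folate receptor, *Clic6* a chloride intracellular channel protein, *Aqp1* a water channel and *Kcnj13* an inwardly rectifying potassium channel. *Otx2* encodes a homeodomain transcription factor needed to form and maintain the plexus.

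In the mouse genome (GRCm38.p6, RefSeq), *Enpp2* lies on chromosome 15 from 54838901 to 54952789, *Sostdc1* on chromosome 12 from 36314169 to 36318452, *Folr1* on chromosome 7 from 101858331 to 101870788 and *Clic6* on chromosome 16 from 92498147 to 92541241. RefSeq start-site windows (GRCm38.p6) were matched for 4 of the 9 members, *Kl*, *Aqp1*, *Kcnj13* and *Otx2*, with 7 windows in all because *Otx2* had several start sites. They are shown because *Otx2* is the member that encodes a DNA-binding regulator. The letters searched were TAATCC, the core recognised by OTX-type homeodomains, on either strand. Of the 7 windows, 1 held the motif (14.3%), against 7.06% of all 32851 windows of the same length (250 bases before to 50 after the start). The 250 bases before the start are printed below, 5′ to 3′ along the transcribed strand, and the capitals mark the motif, which reads GGATTA on this strand of *Otx2* and begins at position -211 from the start site.
Otx2 (chr14:48665110-48665359, minus strand): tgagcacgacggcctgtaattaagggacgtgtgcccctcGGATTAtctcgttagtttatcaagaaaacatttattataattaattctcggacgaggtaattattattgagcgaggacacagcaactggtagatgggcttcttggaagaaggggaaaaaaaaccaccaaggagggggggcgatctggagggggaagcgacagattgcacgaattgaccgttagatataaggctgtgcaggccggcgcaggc
Kcnj13 (chr1:87394730-87394979, minus strand): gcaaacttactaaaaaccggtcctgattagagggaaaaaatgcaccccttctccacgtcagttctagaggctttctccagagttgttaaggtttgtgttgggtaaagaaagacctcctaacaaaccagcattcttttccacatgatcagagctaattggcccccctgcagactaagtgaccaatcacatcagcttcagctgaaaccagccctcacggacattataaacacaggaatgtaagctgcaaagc
Kl (chr5:150952357-150952606, plus strand): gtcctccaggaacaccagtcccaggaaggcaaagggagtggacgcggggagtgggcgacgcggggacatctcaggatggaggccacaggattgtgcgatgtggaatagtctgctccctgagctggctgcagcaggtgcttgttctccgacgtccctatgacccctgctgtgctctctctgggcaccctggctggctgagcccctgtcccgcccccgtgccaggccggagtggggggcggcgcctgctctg
Aqp1 (chr6:55336049-55336298, plus strand): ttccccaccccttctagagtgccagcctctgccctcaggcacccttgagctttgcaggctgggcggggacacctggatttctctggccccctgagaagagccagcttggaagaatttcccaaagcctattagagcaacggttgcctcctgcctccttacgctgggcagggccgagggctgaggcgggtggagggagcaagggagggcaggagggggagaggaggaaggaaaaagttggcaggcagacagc
The *Kcnj13*, *Kl* and *Aqp1* windows did not hold these letters, which says only that this motif is not in these windows.

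Values are normalised read counts, that is, estimated reads divided by a size factor for each sample, and they compare a gene between samples but not genes with each other. Depth was 30365760 to 46225360 reads per brain and 32276896 to 51584522 per liver. The brains differed widely in markers of regions. The thalamus and midbrain gene *Prkcd* ranged from 227 to 8515 normalised counts, the striatal gene *Drd1* from 305 to 5318, the cerebellar gene *Gabra6* from 0 to 215 and the hypothalamic gene *Hcrt* from 0 to 1200, each within genotypes as well as between them. In tRNA-Phe-3-1-/- alone, *Hcrt* stood at 5.39, 2.62 and 1200 normalised counts in replicates A, B and C. Whether each piece held the same part of the ventricles is not recorded in the labels. In bulk tissue, fewer cells of a type and less RNA per cell cannot be told apart.

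*Ttr* differed more between single brains than between genotypes, with normalised counts that ran from 5.01 to 49266. In WT it stood at 5965, 486 and 12103 in replicates A, B and C. The tRNA-Phe-1-1-/- brains had 84.8, 13.5 and 5.01. In tRNA-Phe-2-1-/- the values were 24.6, 46.9 and 49266, and in tRNA-Phe-3-1-/- they were 15098, 44.5 and 24451. The tRNA-Phe-1-1-/- group was thus the only genotype with no brain in or above the WT range, and its 3 values lay below all 3 WT values. Each of the other knockout groups held brains on either side of the WT range, and in tRNA-Phe-2-1-/- the highest brain was 2001-fold above the lowest. The lowest brain, tRNA-Phe-1-1-/- replicate C, rested on 5 recovered reads, so its level is known only coarsely.

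The other secreted members covered a narrower range. *Enpp2* had 10331, 7911 and 12013 normalised counts in WT, 6640, 5608 and 5023 in tRNA-Phe-1-1-/-, 6222, 5015 and 25525 in tRNA-Phe-2-1-/- and 11513, 6094 and 18017 in tRNA-Phe-3-1-/-. All 3 tRNA-Phe-1-1-/- brains were below the lowest WT brain (6640 against 7911 at the nearest), while the other knockouts overlapped WT. *Kl* had 305, 64.5 and 494 in WT, 75.6, 116 and 150 in tRNA-Phe-1-1-/-, 74.9, 132 and 1729 in tRNA-Phe-2-1-/- and 579, 79.4 and 838 in tRNA-Phe-3-1-/-. Its highest brain was tRNA-Phe-2-1-/- replicate C and its lowest WT replicate B, and each knockout overlapped WT. *Sostdc1* was a low gene, with 28.2, 6.34 and 68.9 in WT, 6.87, 6.23 and 10.0 in tRNA-Phe-1-1-/-, 6.15, 5.58 and 169 in tRNA-Phe-2-1-/- and 60.3, 4.36 and 106 in tRNA-Phe-3-1-/-. Its values came close to an all-or-little pattern, between 4.36 and 10.0 in 7 brains and between 28.2 and 169 in 5.

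Among the membrane proteins, the folate receptor gene *Folr1* showed the widest range. It had 83.0, 18.0 and 134 normalised counts in WT, 3.44, 1.04 and 4.01 in tRNA-Phe-1-1-/-, 4.10, 7.81 and 394 in tRNA-Phe-2-1-/- and 141, 4.36 and 317 in tRNA-Phe-3-1-/-. The tRNA-Phe-1-1-/- brains, which rested on 3, 1 and 4 recovered reads, were all below WT. *Kcnj13* had 112, 15.9 and 85.8 in WT, 52.7, 44.7 and 45.1 in tRNA-Phe-1-1-/-, 30.8, 39.1 and 412 in tRNA-Phe-2-1-/- and 205, 25.3 and 275 in tRNA-Phe-3-1-/-. Here the 3 tRNA-Phe-1-1-/- brains lay close together and inside the WT range.

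*Clic6* and *Aqp1* followed *Ttr* only in part. Both were highest in tRNA-Phe-2-1-/- replicate C, as *Ttr* was. *Clic6* had 157, 58.1 and 296 normalised counts in WT, 27.5, 282 and 408 in tRNA-Phe-1-1-/-, 84.1, 177 and 942 in tRNA-Phe-2-1-/- and 422, 41.0 and 763 in tRNA-Phe-3-1-/-. Replicates B and C of tRNA-Phe-1-1-/- were high for this gene and had the least *Ttr* of all brains. The same 2 brains had the most of the striatal gene *Drd1*, with 4619 and 5318 normalised counts, and replicate A of that genotype, lowest for *Clic6*, had the least *Drd1* at 305. The sum of the 6 striatal genes listed was 30876.1 and 31370.5 in those 2 brains and 2974.5 in that replicate A. Across the other genotypes the sum did not follow *Clic6*. It was highest in tRNA-Phe-2-1-/- replicate B (35717.5, with 177 of *Clic6*). In replicate C of that line, with the most *Clic6* (942), it was 8367.8. *Aqp1* had 77.8, 23.3 and 104 in WT, 294, 11.4 and 12.0 in tRNA-Phe-1-1-/-, 17.4, 21.2 and 360 in tRNA-Phe-2-1-/- and 168, 192 and 218 in tRNA-Phe-3-1-/-. All 3 tRNA-Phe-3-1-/- brains were above WT, although replicate B of that genotype had only 44.5 of *Ttr*. That brain and tRNA-Phe-1-1-/- replicate A, with 294 of *Aqp1* and 84.8 of *Ttr*, had 1999 and 1674 of the neuronal gene *Calb2*, among a range of 133 to 3586 over the 12 brains. The 6 thalamus and midbrain genes listed, *Calb2* among them, summed to 7107.4 and 6791.2 in these brains. That lay in the lower part of a range of 5198.9 to 28777.1 over the 12 brains. *Drd1* and *Calb2* were singled out beside these genes after their values were seen, and their part in the results was not tested.

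The regulator *Otx2* had 223, 6.34 and 74.5 normalised counts in WT, 0, 7.27 and 22.0 in tRNA-Phe-1-1-/-, 2.05, 6.70 and 266 in tRNA-Phe-2-1-/- and 73.3, 11.3 and 226 in tRNA-Phe-3-1-/-. The WT and tRNA-Phe-1-1-/- groups overlapped, since WT replicate B was at 6.34. The 3 brains with the most *Otx2* (WT replicate A, tRNA-Phe-2-1-/- replicate C and tRNA-Phe-3-1-/- replicate C) also had the most *Prkcd*, with 1426, 8515 and 5502. *Prkcd* was singled out here and is not the first gene of the thalamus and midbrain list. The sum of that list, *Prkcd* included, was also highest in these brains, at 13707.8, 28777.1 and 25981.3. *Otx2* is known to be expressed in parts of the thalamus and midbrain as well as in the plexus, and the part of those regions in its level was not tested.

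**Figure D1:**
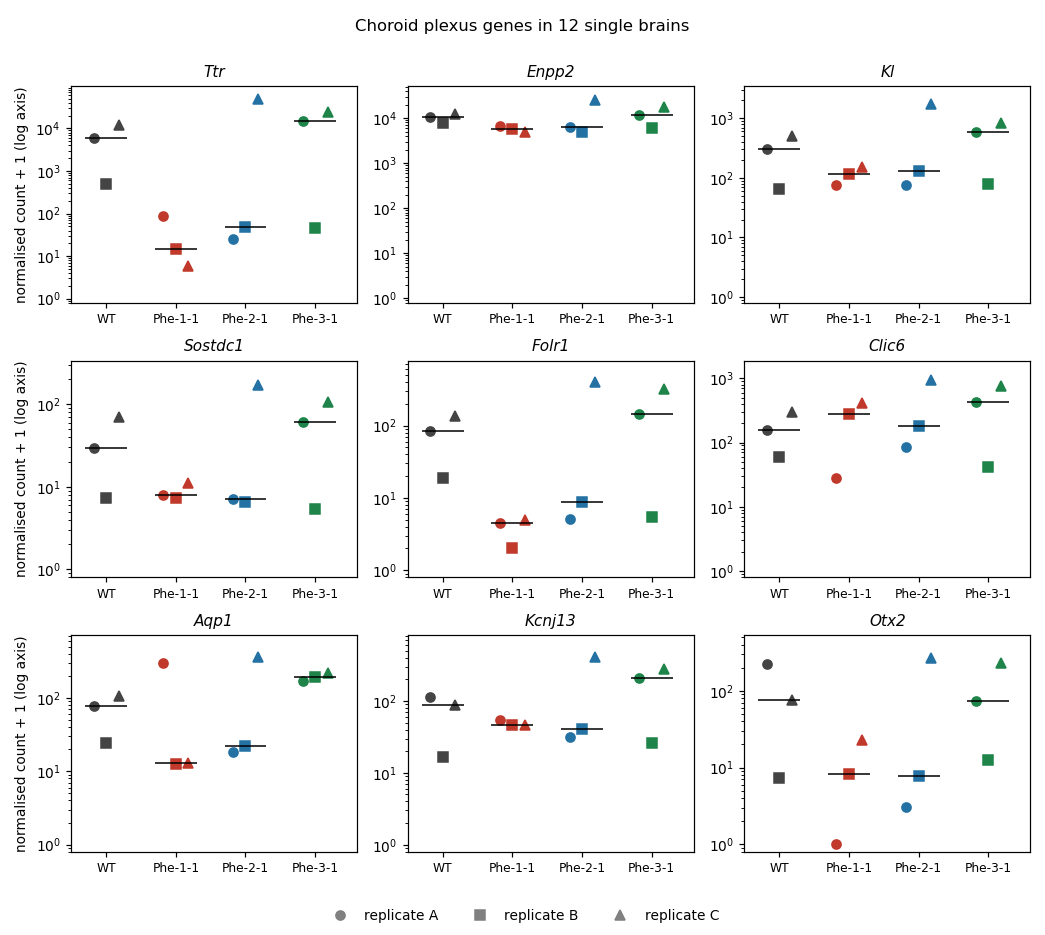
Normalised count + 1 (log axis) of each of the 9 genes in each of the 12 brains, by genotype (Phe-1-1, Phe-2-1 and Phe-3-1 are the homozygous knockouts), with the replicate letter as the symbol and a line at the median of the 3 brains. *Ttr* runs from 5.01 to 49266 normalised counts, with high and low brains in WT, Phe-2-1 and Phe-3-1 and low brains only in Phe-1-1.

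The main comparison asked whether loss of a single tRNA-Phe gene went with a change of these genes. Against WT, 0 of 9 members passed the threshold in tRNA-Phe-1-1-/- brains (limma on log2(normalised count + 1), Benjamini-Hochberg adjusted p under 0.05 over all 19228 genes), where 1.05% of all genes tested passed. At an unadjusted p under 0.05 there were 2, *Ttr* and *Folr1*, and edgeR on recovered reads called 0 and DESeq2 called 1 (*Ttr*). Over all 19228 genes, edgeR called 187 in this comparison and DESeq2 called 874. *Ttr* was -7.39 ± 2.93 (SE) on the log2 scale, with a 95% interval from -13.8 to -0.95 and a limma adjusted p of 0.244. Over the alternatives its adjusted p ran from 0.0162 (DESeq2) to 0.510. *Folr1* was -4.07 ± 1.71, with an interval from -7.82 to -0.32 and a limma adjusted p of 0.269, which ran from 0.0629 to 0.545 over the alternatives.

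For the remaining members in tRNA-Phe-1-1-/- the intervals included 0. *Otx2* was -3.12 ± 1.83 log2 units from WT, *Sostdc1* -1.53 ± 1.37, *Kl* -0.95 ± 1.18, *Enpp2* -0.80 ± 0.53, *Aqp1* -0.69 ± 1.30, *Kcnj13* -0.18 ± 1.09 and *Clic6* 0.08 ± 1.28. Of the 9 estimates, 8 were below 0, and the median log2 fold change of the members was -0.95, beside -0.00059 for all genes tested. In 3 of the 9 (*Ttr*, *Enpp2* and *Folr1*) the tRNA-Phe-1-1-/- and WT brains did not overlap, as they did not for 25.2% of all genes tested, and with 3 brains against 3 an exact permutation test cannot give a p below 0.1, the value it gave for these 3 genes. With 3 brains a genotype the intervals were wide, and differences inside them are not excluded.

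The other knockouts gave no call among the members either. In tRNA-Phe-2-1-/- against WT, limma called 0 of 9 members and 0.0% of all genes (1071 genes at an unadjusted p under 0.05, none of them a member, with 0 genes called by edgeR and 19 by DESeq2, no member among them). In tRNA-Phe-3-1-/- against WT it called 0 of 9 members and 0.0% of all genes (2373 at an unadjusted p under 0.05, with 0 genes called by edgeR and 372 by DESeq2, again no member). *Ttr* was -3.06 ± 2.93 in the first and -0.36 ± 2.93 in the second, and these estimates changed sign in the count models, which compare arithmetic means: +1.42 and +1.10 in edgeR. Removing the single brain tRNA-Phe-2-1-/- replicate C moved the *Ttr* estimate of that line to -6.55, still without a call. Aside from *Ttr*, estimates in tRNA-Phe-2-1-/- ran from -1.44 ± 1.83 (*Otx2*) to 0.79 ± 1.28 (*Clic6*), and in tRNA-Phe-3-1-/- from 0.06 ± 1.71 (*Folr1*) to 1.72 ± 1.30 (*Aqp1*). The medians over the members were -0.15 and 0.41, beside -0.0016 and 0.0018 for all genes. Brains of tRNA-Phe-2-1-/- overlapped WT for all 9 members (11.4% of all genes did not overlap), and those of tRNA-Phe-3-1-/- did not overlap WT for *Aqp1* alone (16.4% of all genes).

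Between the knockouts the members likewise gave no call in limma. It called 0 of 9 in tRNA-Phe-1-1-/- against tRNA-Phe-2-1-/- (0.53% of all genes, no member at an unadjusted p under 0.05) and 0 of 9 against tRNA-Phe-3-1-/- (2.11% of all genes, *Ttr* and *Folr1* at an unadjusted p under 0.05). In these, edgeR called 0 members each and DESeq2 called 2 each, *Ttr* and *Folr1*. Over all genes, edgeR called 108 against tRNA-Phe-2-1-/- and 352 against tRNA-Phe-3-1-/-, and DESeq2 called 673 and 1301. Against tRNA-Phe-3-1-/-, *Ttr* was -7.03 ± 2.93 (limma adjusted p = 0.214) and *Folr1* -4.13 ± 1.71 (limma adjusted p = 0.212). Against tRNA-Phe-2-1-/- they were -4.33 ± 2.93 and -2.87 ± 1.71. In tRNA-Phe-2-1-/- against tRNA-Phe-3-1-/-, 0 of 9 members and 0.0% of all genes were called (1910 genes and no member at an unadjusted p under 0.05, and no member by edgeR or DESeq2). The moderated F-test over the 4 genotypes called 0 of 9 members (0.634% of all genes, no member at an unadjusted p under 0.05, and no member by edgeR or DESeq2), with *Ttr* lowest at a limma adjusted p of 0.360. The comparisons with WT share the same 3 WT brains, and each knockout group enters more than 1 comparison.

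**Figure D2:**
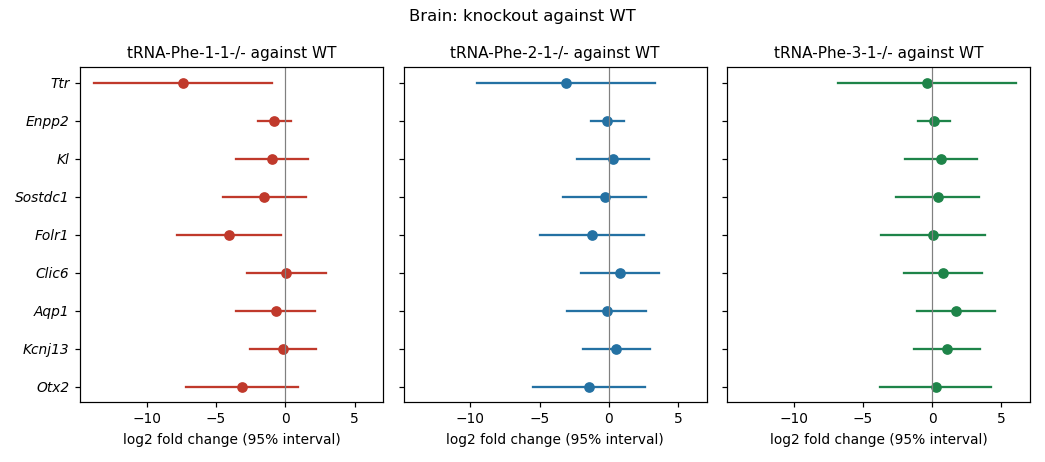
Log2 fold change of the 9 genes in the brains of each knockout against WT (points) with the 95% interval of the limma fit (lines). The intervals of *Ttr* and *Folr1* in tRNA-Phe-1-1-/- lie below 0, and their adjusted p-values over all genes are 0.244 and 0.269.

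The spread between brains of the same genotype, pooled over the 4 genotypes, set these intervals. Its size is the residual standard deviation of log2(normalised count + 1) after the 4 group means are removed. *Ttr* had 4.24, which only 4 of the 19228 genes tested exceeded. It was followed by *Otx2* at 2.63, *Folr1* at 2.45, *Sostdc1* at 1.95, *Aqp1* at 1.87, *Clic6* at 1.85, *Kl* at 1.71 and *Kcnj13* at 1.57, all at or above the 98.5th percentile of all genes. *Enpp2*, at 0.77 and the 94.0th percentile, varied least. The median was 1.87 over the members and 0.21 over all genes tested.

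Within a genotype the spread was unequal. On the log2 scale the SD of *Ttr* was 2.44 in WT, 1.95 in tRNA-Phe-1-1-/-, 6.05 in tRNA-Phe-2-1-/- and 5.05 in tRNA-Phe-3-1-/- (n = 3 each). *Kcnj13* had 1.49, 0.13, 2.05 and 1.85 in the same order, and *Aqp1*, at 0.19, was tightest in tRNA-Phe-3-1-/-. No test of these SDs was made.

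Most members split the brains alike into a higher and a lower set, but within the lower set their order differed. Sorted by *Ttr*, the 12 brains left their largest gap, 3.61 log2 units, between WT replicate A at 5965 and WT replicate B at 486. Above it were 5 brains: WT A and C, tRNA-Phe-2-1-/- C, and tRNA-Phe-3-1-/- A and C. For 7 of the 9 members, *Ttr* itself included, these 5 brains were the 5 highest, and *Clic6* and *Aqp1* were the exceptions. Across all genes tested, 1.26% ranked them as the 5 highest. Since *Ttr* chose the 5 brains, this is a description and the split was not tested. It served only to set these 5 brains aside in the correlations that follow.

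Because the brains fell into clusters by *Ttr*, the members were not correlated with *Ttr* over all 12. Within the 7 brains below the gap, where *Ttr* stayed between 5.01 and 486, the 8 other members had Pearson r with *Ttr* from -0.75 (*Kl*) to 0.83 (*Enpp2*). For *Enpp2* the exact permutation p was 0.0232 (0.138 after Benjamini-Hochberg adjustment over the 8 relations), Spearman's rho was 0.61 (exact p = 0.167, adjusted 0.267), and r was 0.32 without the 2 brains farthest from the median of *Ttr*. For *Kl* the exact permutation p was 0.0421 (adjusted 0.138), rho was -0.64 (exact p = 0.139, adjusted 0.267), and r was -0.34 without those 2 brains. No relation had an adjusted p under 0.05, and the lowest was 0.138. The 7 brains were chosen by *Ttr* itself and came from all 4 genotypes, whose means were not removed. These p-values therefore only describe the 7 brains.

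Further genes of the choroid plexus repeated the split of the brains by *Ttr* in part. Of a list of 35 such genes, 33 passed the filter, and 18 of the 33 had the same 5 highest brains, among them *Kcne2* (a potassium channel subunit), *Cldn2* (a tight junction protein), *Prlr* (the prolactin receptor), *Mfrp* and *Tmem72*. *Kcne2* had 37.6, 0 and 70.0 normalised counts in WT, 0, 0 and 1.00 in tRNA-Phe-1-1-/-, 1.03, 1.12 and 247 in tRNA-Phe-2-1-/- and 92.7, 2.62 and 125 in tRNA-Phe-3-1-/-. It was thus near 0 in the same 7 brains in which *Ttr* was low. Limma called 0 of the 33 in each knockout against WT, with 1, 2 and 0 at an unadjusted p under 0.05 for the 1-1, 2-1 and 3-1 knockouts in that order, and edgeR and DESeq2 also called 0. The medians of the list were -0.39, 0.10 and 0.57 log2 units. The lowest p-values against WT belonged to *Car12* (a carbonic anhydrase, 0.89 ± 0.37), *Sulf1* (a heparan sulfatase, 0.58 ± 0.29) and *Cldn2* (-2.90 ± 1.56) in tRNA-Phe-1-1-/-, to *Car12* (0.90 ± 0.37), *Abca4* (a retinoid transporter, 0.88 ± 0.39) and *Slc22a8* (an organic anion transporter, -0.30 ± 0.17) in tRNA-Phe-2-1-/-, and to *Sulf1* (0.64 ± 0.29), *Ace* (angiotensin-converting enzyme, 0.57 ± 0.27) and *Car12* (0.73 ± 0.37) in tRNA-Phe-3-1-/-. Their limma adjusted p-values were 0.267 or more, and except for *Cldn2* none of these genes was among the 18.

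The non-member genes whose pattern was most like the mean log2 deviation of the 9 members over the 12 brains were *Slc16a8* (a lactate transporter, r = 0.987), *Mfrp* (0.986), *Tmem72* (0.979), *Kcne2* (0.978), *F5* (coagulation factor V, 0.974), *Zfp185* (0.973), *Prr32* (0.971), *Slc2a12* (a sugar transporter, 0.971), *Sntn* (a protein of ciliary tips, 0.971) and *Wdr86* (0.969). These r values serve only to rank genes: the 12 brains fell into clusters, a gene that separates the same brains has a high r, and no p is given. Of these 10, 7 were on the list of further plexus genes. Among 19219 non-member genes, 56 had r of at least 0.9, 15 of them on that list. Of the members, *Sostdc1* (0.981) and *Folr1* (0.976) lay closest to the mean pattern to which they contribute, and *Clic6* (0.713) and *Aqp1* (0.657) farthest from it.

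**Figure D3:**
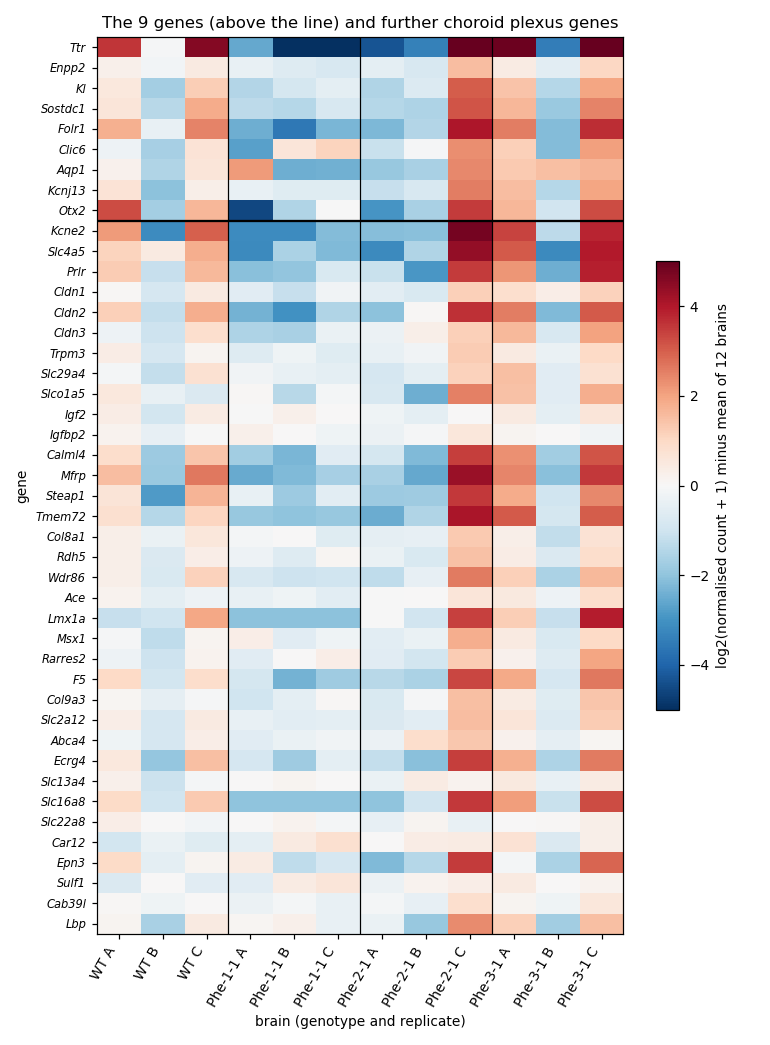
Deviation of log2(normalised count + 1) from the mean of the 12 brains (colour, limited to 5 log2 units either way) for the 9 genes above the line and the 35 further choroid plexus genes below it, with brains in the order of genotype and replicate. WT A and C, Phe-2-1 C and Phe-3-1 A and C are red for most rows. They are the 5 highest brains for 7 of the 9 genes and for 18 of the 33 further genes tested. *Clic6*, *Aqp1*, *Car12* and *Sulf1* are among the rows that depart from this split.

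Markers of neighbouring cell types were read beside the members, and their part in the results was not tested. The summed level of 10 ependymal genes (cells lining the ventricles) was 1429 to 1880 in WT, 1290 to 1634 in tRNA-Phe-1-1-/-, 1525 to 3039 in tRNA-Phe-2-1-/- and 1404 to 3804 in tRNA-Phe-3-1-/-. Its first marker, *Ccdc153*, ran from 1.03 to 266 normalised counts, and 0 of the 10 were called in any knockout against WT. A list of 10 leptomeningeal genes summed to 1850 to 4866 over the 12 brains and 8 endothelial genes to 7722 to 8800. *Dcn*, the first of the meningeal list, ran from 188 to 1247. In tRNA-Phe-1-1-/- against WT, *Dcn* had the only meningeal estimate below 0, the other 9 were above 0, and the median of the list was 0.50 log2 units, the opposite sign to that of the members. In tRNA-Phe-1-1-/- against WT, the endothelial *Cldn5* (-0.54 ± 0.08, limma adjusted p = 0.0160) and *Itm2a* (-0.58 ± 0.09, 0.0230) were lower and *Ly6c1* (0.89 ± 0.12, 0.0160) was higher. No other list gene passed in any knockout, except *Opalin* and *Tph2* below. The 10 oligodendrocyte genes listed, which bear on *Enpp2*, summed to 128512 to 153270 in WT and 48777 to 93602 in tRNA-Phe-1-1-/-, with *Mbp* at 53491, 49537 and 44757 against 17998, 27208 and 31924. The sums were 70757.5 to 169831.3 in tRNA-Phe-2-1-/- and 88777.8 to 187336.2 in tRNA-Phe-3-1-/-, so both overlapped tRNA-Phe-1-1-/-. All 10 estimates were below 0 in each of the 3 knockouts against WT. Their medians were -0.98 in tRNA-Phe-1-1-/-, -0.39 in tRNA-Phe-2-1-/- and -0.19 in tRNA-Phe-3-1-/-. In tRNA-Phe-1-1-/-, *Opalin* was called (-2.19 ± 0.37, limma adjusted p = 0.0256). *Tph2*, a serotonergic gene of the brainstem list, was also called (-1.98 ± 0.38, limma adjusted p = 0.0407). The brainstem gene *Hoxb3* was between 0 and 3.39 normalised counts in all brains, and the globin gene *Hba-a1*, as a mark of blood, was 3058 to 5327 in WT and 1563 to 1967 in tRNA-Phe-1-1-/- without a call. The 6 blood genes tested were all below 0 against WT in tRNA-Phe-1-1-/- and tRNA-Phe-2-1-/-, and all above 0 in tRNA-Phe-3-1-/-. Their medians were -1.15, -0.83 and 0.24 log2 units. *Tcf7l2*, the first of the thalamus and midbrain genes, ran from 40.7 to 689.

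*Ttr* is abundant in liver, so its level in brain was set beside that of albumin (*Alb*), which hepatocytes make in bulk. *Alb* had 625, 227 and 140 normalised counts in WT brains, 851, 5.20 and 36.1 in tRNA-Phe-1-1-/-, 310, 599 and 877 in tRNA-Phe-2-1-/- and 3.23, 9.60 and 36.5 in tRNA-Phe-3-1-/-. The ratio of *Ttr* to *Alb* in the 12 livers was between 0.0644 and 0.110. In 3 brains it fell within that range: tRNA-Phe-1-1-/- replicate A at 0.0996, tRNA-Phe-2-1-/- replicate A at 0.0795 and tRNA-Phe-2-1-/- replicate B at 0.0782. In tRNA-Phe-1-1-/- replicate C it was 0.139, and in the other 8 brains it was between 2.14 and 4670. Other hepatocyte genes accompanied *Alb*, with *Apob* at 383 in tRNA-Phe-1-1-/- replicate A and 8.31 in replicate B. The high *Ttr* of tRNA-Phe-2-1-/- replicate C and of WT replicate A stood at 56.2 and 9.54 times *Alb*. In the brains with a ratio like that of liver, how much of the small remaining *Ttr* count came from plexus and how much from liver RNA was not tested.

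**Figure D4:**
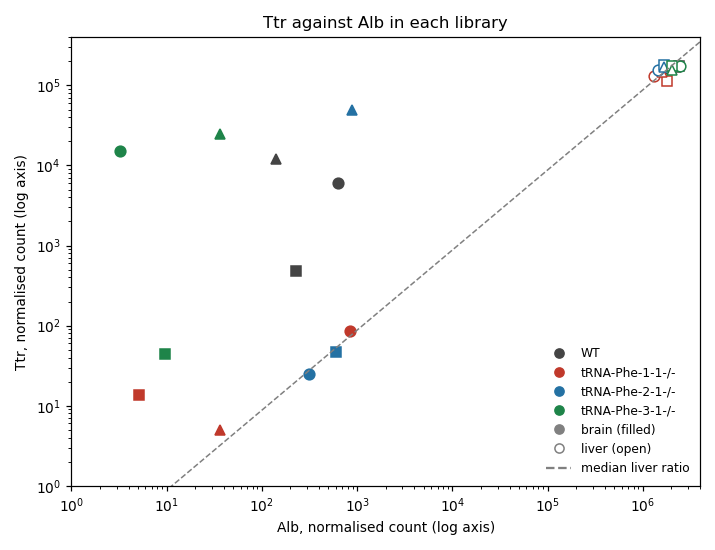
Normalised counts of *Ttr* against *Alb* (both log axes) in the 12 brains (filled) and the 12 livers (open), coloured by genotype, with circles, squares and triangles for replicates A, B and C and a dashed line at the median liver ratio. Of the brains, 3 sit on the liver line at ratios of 0.0782 to 0.0996, and the brains with the most *Ttr* lie far above it.

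In liver, 3 of the 9 members passed the filter on low values: *Ttr*, *Enpp2* and *Aqp1*. The other 6 were between 0 and 7.88 normalised counts in every liver. *Ttr* varied little there. It had 166393, 173682 and 168390 normalised counts in WT, 132077, 115104 and 147858 in tRNA-Phe-1-1-/-, 157064, 179778 and 172057 in tRNA-Phe-2-1-/- and 174032, 173496 and 153785 in tRNA-Phe-3-1-/-. The 3 tRNA-Phe-1-1-/- livers were the lowest of the 12. Against WT they differed by -0.37 ± 0.13 log2 units (limma adjusted p = 0.0694, which did not pass, where 17.3% of the 15856 genes tested in liver did). In tRNA-Phe-2-1-/- the difference was -0.0008 ± 0.13 (0.132% of all genes called) and in tRNA-Phe-3-1-/- it was -0.02 ± 0.13 (0.883% of all genes called). The adjusted p of the tRNA-Phe-1-1-/- difference crossed the threshold without tRNA-Phe-1-1-/- replicate C (0.0384), with no variance trend (0.0458), in edgeR (0.0461) and in DESeq2 (0.00414), and ran from 0.00414 to 0.172 over all alternatives. Over all liver genes, that comparison gave 2703 calls in edgeR and 3474 in DESeq2. Where the brain SDs of *Ttr* were 1.95 to 6.05 log2 units, those of the 4 liver groups were 0.03 to 0.18.

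*Aqp1* and *Enpp2* differed among the livers of the knockout lines. The F-test over the 4 genotypes, which called 17.0% of all liver genes, gave limma adjusted p-values of 0.00584 for *Aqp1*, 0.00726 for *Enpp2* and 0.119 for *Ttr*. *Aqp1* had 2978, 2689 and 2476 normalised counts in WT, 2556, 1892 and 2794 in tRNA-Phe-1-1-/-, 4532, 4433 and 4505 in tRNA-Phe-2-1-/- and 3352, 5232 and 4327 in tRNA-Phe-3-1-/-. It was lower in tRNA-Phe-1-1-/- than in tRNA-Phe-2-1-/- by a log2 difference of -0.91 ± 0.16 (limma adjusted p = 0.00419, with 15.9% of all genes called) and than in tRNA-Phe-3-1-/- by one of -0.83 ± 0.16 (0.00697, with 16.1% called). The second call was lost when the fit held those 2 groups only (limma adjusted p = 0.0613). *Enpp2* had 1468, 1833 and 2096 in WT, 1429, 1096 and 1635 in tRNA-Phe-1-1-/-, 1769, 1750 and 1848 in tRNA-Phe-2-1-/- and 2681, 2487 and 2942 in tRNA-Phe-3-1-/-. It was lower in tRNA-Phe-1-1-/- than in tRNA-Phe-3-1-/- (-0.98 ± 0.15, limma adjusted p = 0.00194). The livers of tRNA-Phe-3-1-/- were above all WT livers for *Enpp2* (0.60 ± 0.15) and *Aqp1* (0.65 ± 0.16), and those of tRNA-Phe-2-1-/- for *Aqp1* (0.73 ± 0.16), with limma adjusted p-values of 0.0908, 0.0935 and 0.100 that did not pass. DESeq2 called all 3 of these differences, and *Aqp1* in tRNA-Phe-2-1-/- also passed when limma was fitted to those 2 groups only (adjusted p = 0.0244). Over all liver genes, DESeq2 called 497 in tRNA-Phe-2-1-/- and 757 in tRNA-Phe-3-1-/- against WT. The share of all liver genes whose groups did not overlap was not counted, here or for *Ttr*. Without WT or knockout libraries in turn, *Enpp2* in tRNA-Phe-1-1-/- against WT (-0.38 ± 0.15, limma adjusted p = 0.109) passed without WT replicate A (0.0415) or tRNA-Phe-1-1-/- replicate C (0.0462). *Enpp2* in tRNA-Phe-3-1-/- against WT passed without tRNA-Phe-1-1-/- replicate B (0.0455), and *Aqp1* in tRNA-Phe-3-1-/- against WT passed without that library (0.0489) or without tRNA-Phe-3-1-/- replicate A (0.0359), with limma in each case.

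**Figure D5:**
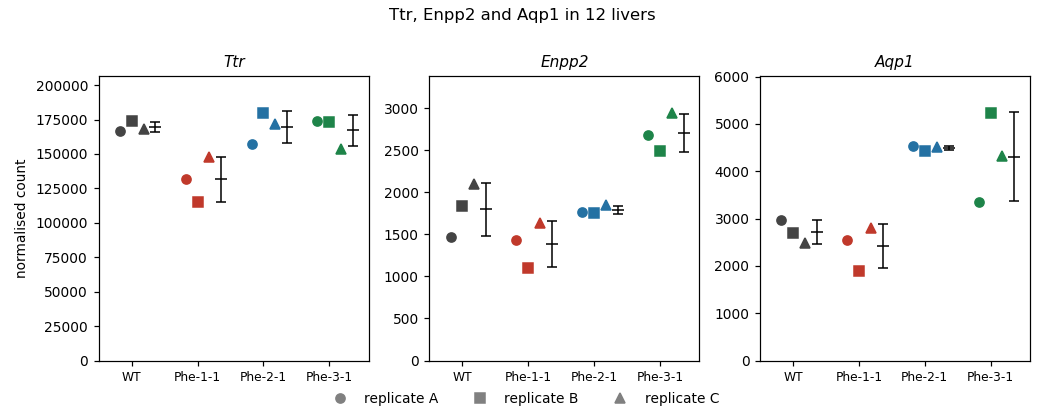
Normalised counts of *Ttr*, *Enpp2* and *Aqp1* in the 12 livers by genotype, with the replicate letter as the symbol and the mean ± SD of the 3 livers beside each group, on axes that start at 0. The 3 Phe-1-1 livers have the least *Ttr*, at 115104 to 147858, and the Phe-3-1 livers have the most *Enpp2*, at 2487 to 2942.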

How the data were processed

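RNA-seq of brain and liver was done on total RNA with Illumina TruSeq libraries. Per the study's methods and the submitters' processing notes, reads were trimmed (Trim Galore, cutadapt), aligned with STAR to GRCm38.p6 with nuclear mitochondrial copies masked, quantified with Salmon and summed per gene. The deposited normalised counts are a signal, that is, estimated counts divided by 1 DESeq2 size factor per sample and tissue by the authors, and they hold no length correction. The deposited comparison tables (the authors' means, log2 fold changes, errors and s-values) were not used. Symbols came from Ensembl identifiers (51679 of 55469 matched).

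On log2(normalised count + 1), limma 3.58.1 (R 4.3.3) fitted a moderated model with a variance trend to the 12 samples of each tissue, for genes with a mean of at least 10. P-values were two-sided and adjusted (Benjamini-Hochberg) over all genes tested, with a threshold of 0.05. Fold changes on this scale understate low genes. Every value was a whole multiple of a step per column (100%, tolerance 0.01), and these recovered reads gave the depth and the input of edgeR 4.0.16 and DESeq2 1.42.0. Named genes were all members, the 3 lowest p-values of the further plexus list in each knockout against WT, the 10 genes most like the members, the first marker of each other list, and any list gene past the threshold. *Prkcd* and *Calb2*, among others, were named outside this rule. A gene chosen by this rule was left out and is not reported. The members and lists were chosen with earlier results of these data known. Other pseudocounts, filters, scalings, fits and left-out replicates were tried. Scripts were tested on simulated data.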

Additional observations from a re-analysis of the deposited data

How the results depend on the processing

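Leaving out each replicate in turn gave 0 to 0 members called in every brain comparison and 0 to 0 further plexus genes against WT, and so did each alternative but one: DESeq2 called 1 member in tRNA-Phe-1-1-/- against WT and 2 in tRNA-Phe-1-1-/- against each other knockout. With the replicate letter as a block, 0 of 9 members were called in all 7 brain tests, and all genes called in tRNA-Phe-1-1-/- against WT went from 202 to 173. Deviations of same-lettered brains correlated from -0.16 to 0.49 over 18 pairs, and 7 of 12 brains correlated best with their own letter. The main fit did not use the letters to pair the samples, and these values do not decide whether the letters pair them. The median spread of the members stayed within 1.53 to 1.99 log2 units when a replicate was left out. Of 618 alternative log2 fold changes of members against WT in the brain, 52 had the opposite sign, and 1 of the 618 passed the threshold (*Ttr* in tRNA-Phe-1-1-/-, DESeq2). The cause of the sign changes was not tested beyond the construction of the count models, which compare arithmetic means. Against WT, edgeR and DESeq2 in turn gave, in tRNA-Phe-2-1-/-, 1.42 and 1.41 for *Ttr*, 0.29 and 0.28 for *Enpp2*, 0.85 and 0.81 for *Sostdc1*, 0.82 and 0.79 for *Folr1* and 0.99 and 0.96 for *Aqp1*, in tRNA-Phe-3-1-/- 1.10 and 1.10 for *Ttr*, and in tRNA-Phe-1-1-/- 0.62 and 0.63 for *Aqp1*. A pseudocount of 0.1 gave -0.0044 for *Folr1* in tRNA-Phe-3-1-/-.

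Leaving out replicates also turned signs. In tRNA-Phe-1-1-/- against WT the ranges were -2.20 to 0.0841 for *Aqp1*, -0.65 to 1.27 for *Clic6* and -1.03 to 0.34 for *Kcnj13*. In tRNA-Phe-2-1-/- they were -1.53 to 0.61 for *Aqp1*, -0.19 to 1.55 for *Clic6*, -0.83 to 0.34 for *Enpp2*, -0.62 to 1.23 for *Kcnj13*, -1.10 to 1.16 for *Kl* and -1.85 to 0.50 for *Sostdc1*. In tRNA-Phe-3-1-/- they were -0.076 to 2.02 for *Clic6*, -0.25 to 0.54 for *Enpp2*, -1.12 to 1.83 for *Folr1*, -0.20 to 1.70 for *Kl*, -1.13 to 1.38 for *Otx2*, -0.46 to 1.71 for *Sostdc1* and -1.98 to 2.55 for *Ttr*. In the liver, *Ttr* against WT ranged from -0.46 to -0.28 in tRNA-Phe-1-1-/-, -0.0438 to 0.0536 in tRNA-Phe-2-1-/- and -0.0530 to 0.0362 in tRNA-Phe-3-1-/-, and *Enpp2* in tRNA-Phe-2-1-/- from -0.13 to 0.12. Liver *Ttr* in tRNA-Phe-1-1-/- passed with no variance trend (-0.37), in edgeR (-0.37) and in DESeq2 (-0.37). Trimmed mean rescaling gave 0.0269 for liver *Ttr* in tRNA-Phe-2-1-/-, and liver *Enpp2* there was -0.0099 with quantile normalisation, -0.0141 in edgeR and -0.0123 in DESeq2.

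Among genes of other lists in tRNA-Phe-1-1-/- brains, calls were lost without WT replicate B or C for *Ly6c1* (adjusted p 0.0577 and 0.0745), without WT C or tRNA-Phe-1-1-/- B or C for *Cldn5* (0.0530 to 0.0850), without any WT library or tRNA-Phe-1-1-/- B or C for *Opalin* (0.0615 to 0.0942) and *Itm2a* (0.0627 to 0.0920), and under many alternatives for *Tph2* (up to 0.159), all with limma. Depth limits the lowest values: *Folr1* rested on 1 to 4 reads in tRNA-Phe-1-1-/- brains. The 3 brains per genotype and the spread between them limit all other comparisons.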
